A study of Mus musculus with 6 samples.

Results

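Of 382006 accessible regions in the E11.5 mouse face, 744 separated the libraries labelled mandibular process from all others by their strong peaks. The assay was bulk ATAC-seq, which uses the Tn5 transposase to place adapters into DNA that is not wrapped up in closed chromatin. The tissue was freshly dissected from wild-type mouse embryos at E11.5 with no treatment named, the cell type is given as mixed, and there were 2 libraries each labelled mandibular process, maxillary process and nose. A strong peak had a −log10 q of at least 5 in its list, q being the caller's p-value after correction for multiple testing. Overlapping peaks of all 6 lists were merged into regions. A gained region was strong in both libraries labelled mandibular process and had no listed peak in the other 4, which gave 673 regions. A lost region was strong in all of the other 4 libraries and had no listed peak in either library labelled mandibular process, which gave 71 regions.

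The mandibular process is the part of the first pharyngeal arch that forms the lower jaw, and the maxillary process gives rise to much of the upper jaw. Neural crest cells that populate both processes share most of their gene program at this stage. Their identities are set apart by endothelin, Dlx and Hand factors in the lower jaw and by factors such as Alx1, Alx4 and Pou3f3 in the upper face. Most regulatory DNA that differs between such tissues lies far from promoters, in enhancers bound by combinations of transcription factors. RUNX factors direct the formation of bone, TCF and LEF factors are the nuclear effectors of Wnt signalling, and HAND and TWIST factors bind E-boxes in neural crest mesenchyme.

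Each jaw list was named with the code of the opposite jaw. Grouping went by the sample label, and a library is called here by its label only. The lists themselves did not settle the labels. Around Hand2, a lower-jaw regulator, 20 and 21 regions were called in the libraries labelled mandibular process, against 28 and 27 in those labelled maxillary process and 17 and 20 in those labelled nose. Around Alx1, an upper-face homeobox gene, 35 and 33 regions were called in the libraries labelled mandibular process, against 21 and 19 for maxillary process and 32 and 37 for nose. Around Alx4, its paralog, the counts were 28 and 29 for mandibular process, 18 and 18 for maxillary process and 24 and 30 for nose. Part of these gaps follows the number of regions called, which was 183604 and 175072 for mandibular process, 139404 and 171884 for maxillary process and 173953 and 185670 for nose. Per 10000 regions called, Hand2 had 1.09 and 1.2 in the libraries labelled mandibular process, against 2.01 and 1.57 for maxillary process and 0.977 and 1.08 for nose, and Alx1 had 1.91 and 1.88, against 1.51 and 1.11 and against 1.84 and 1.99. Between the jaw labels, these genes thus went against the labels and along with the names of the lists. The 15 genes of the lower-jaw list were nearest to 0.137% and 0.132% of the strong distal regions under the label mandibular process, against 0.154% and 0.154% for maxillary process and 0.123% and 0.127% for nose (two-sided exact permutation p = 0.733 for 2 against 4 libraries). Both libraries labelled mandibular process thus lay below both labelled maxillary process and above both labelled nose, and that p-value pools maxillary process with nose. For the 18 genes of the upper-jaw and frontonasal lists the shares were 0.230% and 0.232%, against 0.213% and 0.232% for maxillary process and 0.261% and 0.247% for nose (exact permutation p = 0.667). Whether replicates were separate embryos is not stated, so a p-value over libraries measures only the spread between these libraries.

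The following windows are examples from gained regions, 201 bases around the strongest summit, read from GRCm38 on the plus strand. They were taken from the strongest gained regions and from the region next to Osr2, and matches to 3 short motifs are in capitals: TGTGGT of RUNX factors, CTTTGAT of TCF and LEF factors and CATCTG of HAND and TWIST factors, each on either strand. The windows near Gm527, Alx1 and Osr2 hold a single RUNX-type match each, the window in Zfp366 a HAND/TWIST-type match, and the window near Wdfy3 a RUNX-type and a TCF/LEF-type match. Each window shown holds a match, so they do not show how common the motifs are. Of the 673 gained regions, 388 (57.7%) held any of the 3 and 186 (27.6%) a RUNX-type match. The regions in Gpc6 and Nr4a3, also among the 10 strongest, held none of the 3.
chr12:64713535-64713735, plus strand, intergenic, 204 kb from Gm527: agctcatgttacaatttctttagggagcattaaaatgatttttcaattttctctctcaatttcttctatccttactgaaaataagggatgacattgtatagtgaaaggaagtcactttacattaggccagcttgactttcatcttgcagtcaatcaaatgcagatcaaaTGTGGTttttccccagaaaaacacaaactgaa
chr10:103129290-103129490, plus strand, intron of Lrriq1, 99.2 kb from Alx1: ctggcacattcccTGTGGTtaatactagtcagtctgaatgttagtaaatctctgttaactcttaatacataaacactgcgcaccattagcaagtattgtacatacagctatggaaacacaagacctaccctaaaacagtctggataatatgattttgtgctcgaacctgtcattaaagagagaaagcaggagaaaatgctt
chr13:99185583-99185783, plus strand, intron of Zfp366, 0.860 kb from its start site: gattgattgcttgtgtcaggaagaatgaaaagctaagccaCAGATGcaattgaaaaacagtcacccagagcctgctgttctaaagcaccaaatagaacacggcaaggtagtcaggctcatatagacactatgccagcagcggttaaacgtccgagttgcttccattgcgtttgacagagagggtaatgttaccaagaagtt
chr5:102261714-102261914, plus strand, intergenic, 192 kb from Wdfy3: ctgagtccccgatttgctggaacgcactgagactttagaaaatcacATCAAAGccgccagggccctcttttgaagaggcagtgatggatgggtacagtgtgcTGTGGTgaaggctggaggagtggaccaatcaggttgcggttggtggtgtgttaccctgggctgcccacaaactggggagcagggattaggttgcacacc
chr15:35327414-35327614, plus strand, intron of BC048602, 27.2 kb from Osr2: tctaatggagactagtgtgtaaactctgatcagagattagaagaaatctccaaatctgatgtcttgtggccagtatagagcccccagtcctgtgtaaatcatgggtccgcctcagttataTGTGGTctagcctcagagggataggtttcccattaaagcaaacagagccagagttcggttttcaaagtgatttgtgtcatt

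Windows of 3 lost regions follow, with CACCTG, the E-box bound by SNAI factors, and ACAATGG of SOX factors in capitals. Other motifs are marked here than in the gained windows, so the windows do not compare gained with lost regions. Each holds a SNAI-type match, and the last also holds a SOX-type match. They are not typical, since 14 of the 71 lost regions (19.7%) held a SNAI-type match and 6 (8.45%) a SOX-type match.
chr6:41692083-41692283, plus strand, intron of Kel: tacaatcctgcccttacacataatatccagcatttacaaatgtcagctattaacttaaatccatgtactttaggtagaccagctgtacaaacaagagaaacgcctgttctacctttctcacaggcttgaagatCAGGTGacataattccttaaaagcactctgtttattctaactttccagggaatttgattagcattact
chr3:127019119-127019319, plus strand, intron of Ank2: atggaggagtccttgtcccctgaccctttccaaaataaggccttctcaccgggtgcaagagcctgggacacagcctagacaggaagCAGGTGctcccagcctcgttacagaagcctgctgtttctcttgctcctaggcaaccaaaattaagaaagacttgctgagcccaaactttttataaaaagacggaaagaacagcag
chr7:40306085-40306285, plus strand, intergenic, 592 kb from Vstm2b: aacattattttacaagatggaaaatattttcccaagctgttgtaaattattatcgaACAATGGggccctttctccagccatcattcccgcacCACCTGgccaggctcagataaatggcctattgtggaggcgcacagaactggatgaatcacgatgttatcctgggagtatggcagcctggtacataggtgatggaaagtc

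The 673 gained regions were 1.22% of the 55135 regions that were strong in both libraries labelled mandibular process. The 71 lost regions were 0.209% of the 33900 regions strong in the other 4 libraries. The same rule gave 456 gained (1.03%) and 127 lost regions (0.333%) for the label maxillary process, and 695 gained (1.42%) and 147 lost regions (0.409%) for nose. In both directions the number depended on a strength threshold, since 10788 regions of any strength were listed for the label mandibular process in both replicates and nowhere else, and 3117 showed the reverse. The lists differ in length and in their weakest value: the 6 lists held 219779 to 299731 lines, and the weakest −log10 q listed was 1.62 in mandibular process replicate 1, 2.55 in maxillary process replicate 2 and 1.3 in the other lists, while the depth in reads is unknown. The 2 lists with a higher weakest value were also the longest, with 299731 and 299726 lines, and may have been cut at a length, so that a peak below those values would be unlisted there. With lists cut to equal length, 1139 regions were gained and 186 lost. With the label resting on replicate 2 or on replicate 1 alone, 1615 or 3200 regions were gained and 170 or 180 lost. The lost count was 334 without maxillary process replicate 1 and 151 without nose replicate 1.

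Gained regions were among the weaker of the strong peaks. Their −log10 q had a median of 7.97 in mandibular process replicate 1, with a range from 5.01 to 29.9, and of 6.27 in replicate 2, with a range from 5.0 to 22.2. All regions strong in both libraries had medians of 13.3 and 12.0. The fold over the local background, as the authors' caller gave it, had medians of 6.18 and 5.72 in the gained regions and of 7.70 and 7.47 in all regions strong in both. The value was higher in replicate 1 for 480 of the 673 regions (71.3%). By the weaker of the 2 values, 285 gained regions (42.3%) lay below 6 and 41 (6.09%) at 10 or above. To 3 digits the 673 regions took 227 values in replicate 1 and 191 in replicate 2. The most common were 6.23 in replicate 1, shared by 65 gained regions (9.66%), and 5.23 in replicate 2, shared by 141 (21%). The 2 libraries placed their strongest summits a median of 25.0 bp apart in gained regions, and within 50 bp in 431 of them (64.0%), against a median of 18 bp in all regions strong in both.

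**Figure D1:**
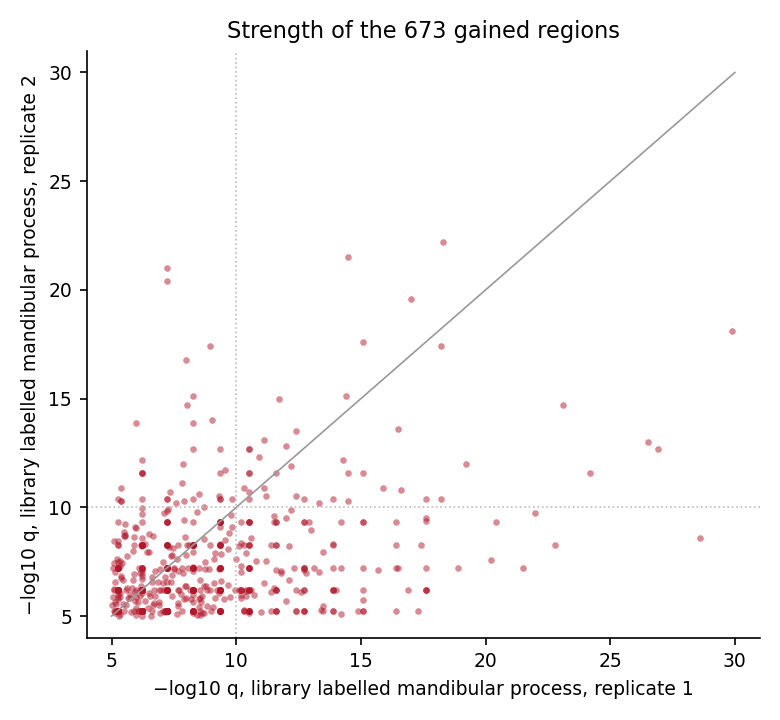
Each point is 1 of the 673 gained regions, with its −log10 q in mandibular process replicate 1 on the horizontal axis and in replicate 2 on the vertical axis; the line marks equal values and dotted lines mark 10. Most points crowd between 5 and 10 on both axes, and 41 lie at 10 or above on both.

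Just inside the threshold were regions next to Khdc1b with 5.28 and 5.0048, Tmem164 with 5.01 and 5.53, and Camk1g with 6.23 and 5.02. Just outside were regions next to Vgll4 with 10.5 and 4.9950, Tcaf3 with 6.31 and 4.99, and Nudt12 with 5.71 and 4.99. Members next to the threshold and regions left out thus stood side by side in strength. On the lost side, 2 regions near Plxna2 and 1 near Wdr60 stood just inside with weakest values of 5.0009, 5.0318 and 5.0970. Regions near Celf2, Capza3 and Trib2 stood just outside at 4.9755 each.

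Gained regions lay almost wholly away from promoters. Only 10 of 673 (1.49%, 95% Wilson interval 0.809 to 2.71) were within 1 kb of a protein-coding start site, against 28.8% of all regions strong in both libraries labelled mandibular process and 44.4% of regions strong in all 6 libraries. The nearest start site was a median of 105 kb away, against 23.0 kb and 5.64 kb in the same 2 classes. Beyond 500 kb lay 81 gained regions (12.0%), against 3.83% of the regions strong in both. Of the gained summits, 368 (54.7%) were intergenic, 286 (42.5%) were in introns, 5 were in coding exons, and 7 each were in untranslated and noncoding exons. None of the 71 lost regions was a promoter, a count of 0 that allows a share of up to 4.23% for counting error alone. Their median distance was 113 kb, and 38 were intergenic and 32 intronic. The gained regions of the label maxillary process and of nose lay at medians of 88.8 kb and 119 kb with 4 and 9 promoters, so distal position was shared by the gained regions of every label.

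**Figure D2:**
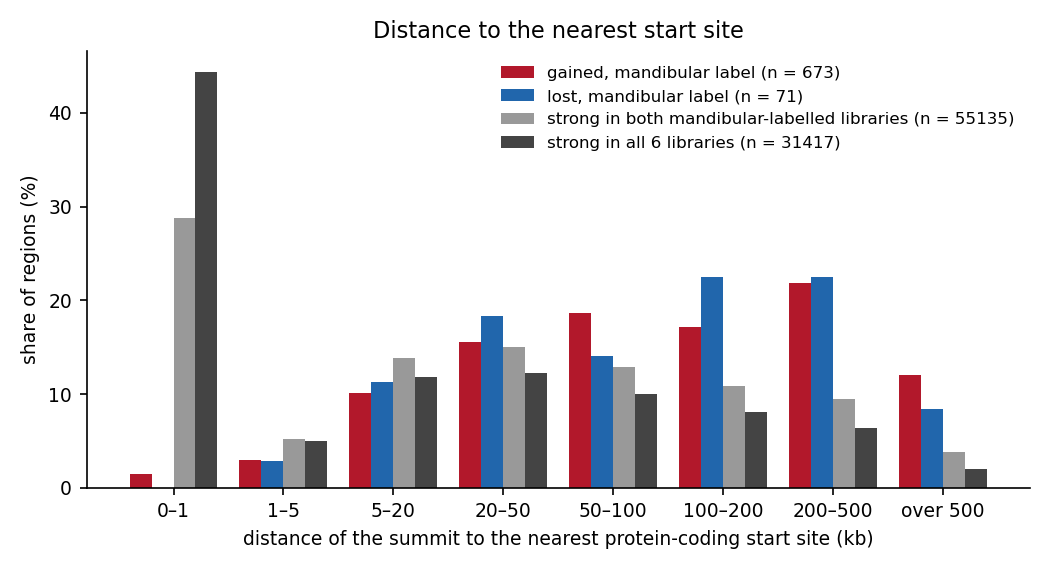
Bars give the share of regions (vertical axis, percent) by the distance of the summit to the nearest protein-coding start site (horizontal axis, kb) for gained and lost regions of the label mandibular process and for 2 classes of shared regions. In the first bin stand 1.49% of gained and 0 of 71 lost regions, against 28.8% and 44.4% of the shared ones, and in the last 12.0% and 8.45% against 3.83% and 2.05%.

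The 10 promoters among the gained regions began with Zfp366, a zinc finger factor gene of dendritic cells, whose region in its intron reached 14.5 and 21.5. The others were at Cracr2a, Tph2, Sprr2h, Ank3, Crip1, Ptprc, Dcdc2c, Zfp523 and Olfr971, with weaker values of 7.01 down to 5.23. No promoter of a known jaw-patterning gene was among them. Ptprc encodes the leukocyte antigen CD45, and none of the 10 genes of the blood and macrophage list had a further gained region nearby. That list was nearest to only 16 distal regions strong in both libraries.

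Gained regions were narrower and poorer in GC than regions gained under the other labels. The median width was 370 bp, against 468 bp and 406 bp for regions gained under maxillary process and nose. It was 582 bp for all regions strong in both libraries and 556 bp for the lost regions. A region spans the peaks of every list that has one there, so classes present in more lists are wider in part by construction. The median GC content of the 201-base window was 40.8% in gained and 46.3% in lost regions, against 45.3% and 43.8% in regions gained under maxillary process and nose, and 50.2% in distal regions strong in all 6 libraries. Windows made mostly of repeats numbered 47 in the gained regions (6.98%), against 2.18% of the regions strong in both libraries, 2.85% of those gained under maxillary process and 2.73% of those gained under nose. The share was 7.09% and 6.80% in regions lost under maxillary process and nose, and 5.92% of all merged regions. The X chromosome held 29 gained regions (4.31%) and 2 lost ones, and the Y chromosome held none of either, while 10 regions strong in both libraries lay on it.

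The closest peak of another label lay 27 bp to 65307 bp from a gained region, and these distances were not set against a baseline. Next to a gained region the closest listed peak of another label lay at a median of 2943 bp, within 1 kb for 192 regions (28.5%) and within 250 bp for 81 (12.0%), and 111 (16.5%) had none within 10 kb. Where another label's peak was this close, the call of absence hung on where the intervals ended, and joining peaks up to 250 bp apart left 577 gained regions. Pairs of gained regions within 50 kb of each other numbered 21, and pairs within 1 kb numbered 7.

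The strongest gained region, at chr12:64713458-64713779 on GRCm38, was intergenic, 204 kb from Gm527. Its −log10 q was 18.3 and 22.2 in the 2 libraries labelled mandibular process, at folds of 10.2 and 11.7. A second gained region at chr12:64713144-64713327 lay beside it with 12.4 and 10.5, and the nearest peak of another label was 20280 bp from the first. The next protein-coding gene on the lower side, Fscb, started 239 kb away and the one after it, Lrfn5, 3189.7 kb away, so the pair lay at the edge of a gene-poor stretch.

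The second, at chr15:63671763-63672470, was intronic in the noncoding Gm41335 and lay 137 kb from the gasdermin gene Gsdmc, with 29.9 and 18.1. On the other side the first protein-coding start site was that of Myc, 1685 kb away. The desert beyond Myc is known in the mouse for long-range enhancers that act in the face, and this was the only gained or lost region between 61 and 65 Mb of the chromosome.

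The third, at chr10:103129214-103129875, was in an intron of Lrriq1 and 99.2 kb from Alx1, with 18.2 and 17.4 and summits 3 bp apart. It was the single gained region next to Alx1, a gene needed for the upper face. The ninth, at chr8:91672266-91672985, lay 129 kb from Irx3, an Iroquois homeobox gene, with 16.5 and 13.6. It had no peak of another label within 11125 bp.

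Other members of the 10 strongest lay in or near genes with no known part in jaw identity. At chr14:117449919-117450492, in an intron of the glypican gene Gpc6, the values were 17.0 and 19.6, and at chr13:96812108-96812722, in an intron of Ankrd31, a gene of meiotic recombination, they were 15.1 and 17.6. A region at chr5:83984266-83984749 lay 432 kb from the ephrin receptor gene Epha5 with 23.1 and 14.7. One at chr5:102261478-102262179 lay 192 kb from Wdfy3 with 26.5 and 13.0. In Zfp366 the region at chr13:99185340-99185985 had 14.5 and 21.5. None of these had a peak of another label within 1 kb. In contrast, the region at chr4:48062158-48062348, in an intron of the nuclear receptor gene Nr4a3, with 14.4 and 15.1, had a peak of another label only 70 bp away.

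Of the 673 gained regions, 329 had a protein-coding start site within 100 kb. They fell on 323 genes, and 318 of these had a single gained region, so the gained regions did not pile up at few genes. Smoc2, which encodes a secreted matricellular protein and in dogs is associated with skull shape, was the only gene with 3. They had values of 10.6 and 8.58 at chr17:14252370-14252840, 11.4 and 8.25 at chr17:14362989-14363498, and 8.61 and 5.93 at chr17:14251565-14252068. The first and the last of these lay within 1 kb of each other. Of the regions next to Smoc2, 9 were strong in both libraries labelled mandibular process and 4 in all of the other libraries. Herc2, Lingo2 and Pdzd2 had 2 gained regions each.

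Genes with known roles in the face were next to gained regions about as often as next to shared ones. The 17 lists of marker and patterning genes, 171 genes in all, were nearest to 8 gained regions (1.19%), against 1.41% of the distal regions strong in both libraries labelled mandibular process, and to 0 lost regions. Under the labels maxillary process and nose, 9 and 5 gained regions were nearest to these genes. No gained or lost region had Hand1, Hand2, a Dlx gene, Pou3f3, Nr2f1, Nr2f2 or Alx4 as its nearest gene within 100 kb. Farther out, 2 gained regions had Nr2f1, an upper-jaw nuclear receptor gene, as their nearest gene at 849 kb and 1215 kb. These 2 were not set against a baseline, and 81 gained regions (12.0%) lay beyond 500 kb of any protein-coding start site.

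Apart from the region next to Alx1, 2 of the 8 passed 10 in both libraries. Next to Osr2, a zinc finger gene of palate and jaw mesenchyme, the region at chr15:35327448-35327867 had 11.7 and 15, 27.2 kb from the start site. Next to Emx2, a homeobox gene on the nasal epithelium list, the region at chr19:59530834-59531080 had 17.6 and 10.4, 72.5 kb away. With Alx1, these were the 3 list genes whose region passed 10 in both libraries.

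The other list genes described here had weaker regions, most of them close to a peak of another label. Foxf2, a forkhead gene of palate mesenchyme, had 5.90 and 8.63 at 85 bp from such a peak, and Tgfb2, which encodes a growth factor, had 5.08 and 7.46 at 272 bp. Erg, an endothelial factor gene, had 5.27 and 7.20 at 152 bp, and Mitf, the melanocyte regulator, 8.28 and 6.20 at 674 bp. When peaks up to 250 bp apart were joined, 5 of the 8 regions near list genes were left. Marker lists of blood, neurons, muscle, cartilage and bone, surface epithelium and pharyngeal endoderm had no gained region, and the endothelial and melanoblast lists had 1 each, next to Erg and Mitf. The lists without a gained region were nearest to only 16 to 41 distal regions strong in both libraries labelled mandibular process. Of all regions strong in both, 1.22% were gained, so at that share lists of this size would have few or none, and the counts do not tell cell types apart. Fewer cells of a type and less open chromatin per cell cannot be told apart in bulk tissue.

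Lost regions were fewer. The strongest, at chr6:41691807-41692589, was in an intron of the blood-group gene Kel, 7.75 kb from Llcfc1. Its −log10 q was absent in both libraries labelled mandibular process, against 11.9 and 25.6 for maxillary process and 16.9 and 13.4 for nose. The second, at chr2:47095715-47096676, lay 1718 kb from Acvr2a, an activin receptor gene, with 10.6, 17.0, 16.4 and 22.8 in the same order of the 4 libraries. These were the only 2 lost regions that reached 10 in all 4. The nearest peak of a library labelled mandibular process was 10464 bp and 8113 bp away.

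The next were intronic in Etl4, at chr2:20461711-20462320, with 9.88, 12.0, 10.9 and 15, and in the glutamate receptor gene Gria4, at chr9:4459270-4459836, with 9.68, 29.1, 18.8 and 12.9. In Ank2, which encodes an ankyrin of nerve and heart, the region at chr3:127018980-127019752 had 12.7 and 31.3 for maxillary process and 8.82 and 15.5 for nose. The other 5 of the 10 strongest lay near Rnase2a, Olfml2b, Ptbp2, Gm11232 and Vstm2b, with weakest values between 8.0 and 8.74. The region near Ptbp2, a neuronal splicing factor gene, had a peak of a library labelled mandibular process 505 bp away. No gene was nearest to more than 1 lost region within 100 kb, and 33 lost regions had a gene within that distance. The strongest summits of the 4 libraries spread over a median of 127 bp, against 59.0 bp in all regions strong in the other 4.

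The gained regions carried some motifs more often than shared regions did. The search covered 25 motifs in the 201-base windows, each on both strands. By the ratio to regions strong in all 6 libraries, TCF/LEF (CTTTGAT) came first, in 71 gained regions (10.5%, Wilson interval 8.45 to 13.1). It was in 2.85% and 2.01% of the regions gained under maxillary process and nose, in 2.33% of the regions strong in all 6 libraries, in 3.33% of their distal part and in 3.85% of all merged regions. The RUNX motif (TGTGGT) was in 186 gained regions (27.6%, Wilson interval 24.4 to 31.1), against 13.6% and 15.5% of those gained under maxillary process and nose, 15.2% of distal regions strong in all 6 libraries and 15.3% of all regions. The intervals of both motifs in gained regions lay above all of these shares. Regions lost under nose, which are open in the libraries of both jaw labels, held TCF/LEF in 9.52% of 147 regions, inside the interval of the gained regions, and RUNX in 22.4%. Regions lost under maxillary process held TCF/LEF in 4.72% and RUNX in 23.6% of 127. Windows count as separate in these intervals, which cover counting error only.

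The POU octamer (ATGCAAA) was in 56 gained regions (8.32%), against 3.07% and 4.32% of those gained under maxillary process and nose and 3.87% of distal regions strong in all 6 libraries. The MEF2 motif (CTAAAAA) was in 32 (4.75%), against 2.85%, 3.17% and 2.37% of the same classes. The HAND/TWIST-type E-box (CATCTG) was in 215 (31.9%), against 27.0% and 16.4% of the other gained regions and 25.4% of the distal shared ones. Regions lost under nose held it more often, in 63 of 147 (42.9%), and those lost under maxillary process in 26.8%. The TALE motif (TGACAG), bound by MEIS and PBX factors, was in 150 (22.3%), against 23.9%, 11.4% and 14.9%. The TALE motif was chosen after its values were seen. In all, 388 gained regions (57.7%) held at least a RUNX, TCF/LEF or HAND/TWIST-type match, against 38.8% of the regions gained under maxillary process, 30.4% of those gained under nose and 38.4% of the distal regions strong in all 6 libraries. The share was 61.9% in regions lost under nose and 46.5% in those lost under maxillary process. RUNX and TCF/LEF matches stood together in 22 gained regions (3.27%), against 0.219%, 1.01% and 0.550%.

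Other motifs were rare in gained regions. ETS (CCGGAAG), TFAP2 (GCCNNNGGC) and the CTCF core (AGGGGGC) were in 0.149%, 2.38% and 1.78% of them, against 1.75%, 8.72% and 7.87% of distal regions strong in all 6 libraries. ETS and CTCF were as rare in regions gained under maxillary process, at 0.219% and 1.32%, and under nose, at 0.719% and 1.15%. The full NFI palindrome and the paired homeodomain palindrome were in none of the gained regions and in 0.120% and 0.298% of the distal shared ones. Of other E-boxes, named after their values were seen, CAGCTG of myogenic factors was in 9.81%, against 19.3% and 13.5% of the regions gained under maxillary process and nose and 20.8% of distal shared ones. The SNAI-type E-box (CACCTG) was in 32 gained regions (4.75%), against 11.6% and 18.6% of those gained under maxillary process and nose and 10.9% of distal shared regions.

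Lost regions held some other motifs often, with wide intervals at this number. The SNAI-type E-box was in 14 of 71 (19.7%, Wilson interval 12.1 to 30.4) and SOX (ACAATGG) in 6 (8.45%, 3.93 to 17.2), against 10.9% and 2.06% of distal regions strong in all 6 libraries. Regions gained under nose also held these motifs, in 18.6% and 5.32%. The homeodomain core (TAATTA) was in 8.45% and the GATA motif, whose letters were AGATAA, in 14.1%, against 4.31% and 5.99%. The homeodomain core was in 7.63% of the regions gained under nose and GATA in 16.5% of those lost under maxillary process. EBF and the paired homeodomain palindrome stood at 2.82% and 1.41%, which are 2 regions and 1 region. TCF/LEF was in 2 lost regions (2.82%) and RUNX in 14 (19.7%), a share whose interval of 12.1 to 30.4 includes that of the distal shared regions. The forkhead motif (TGTTTAC), NFI and ETS were in 0 lost regions, which allows a share of up to 4.23%, and GLI (GGGTGGT) and the CTCF core were in 1.41% and 2.82%, against 2.76% and 7.87%.

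**Figure D3:**
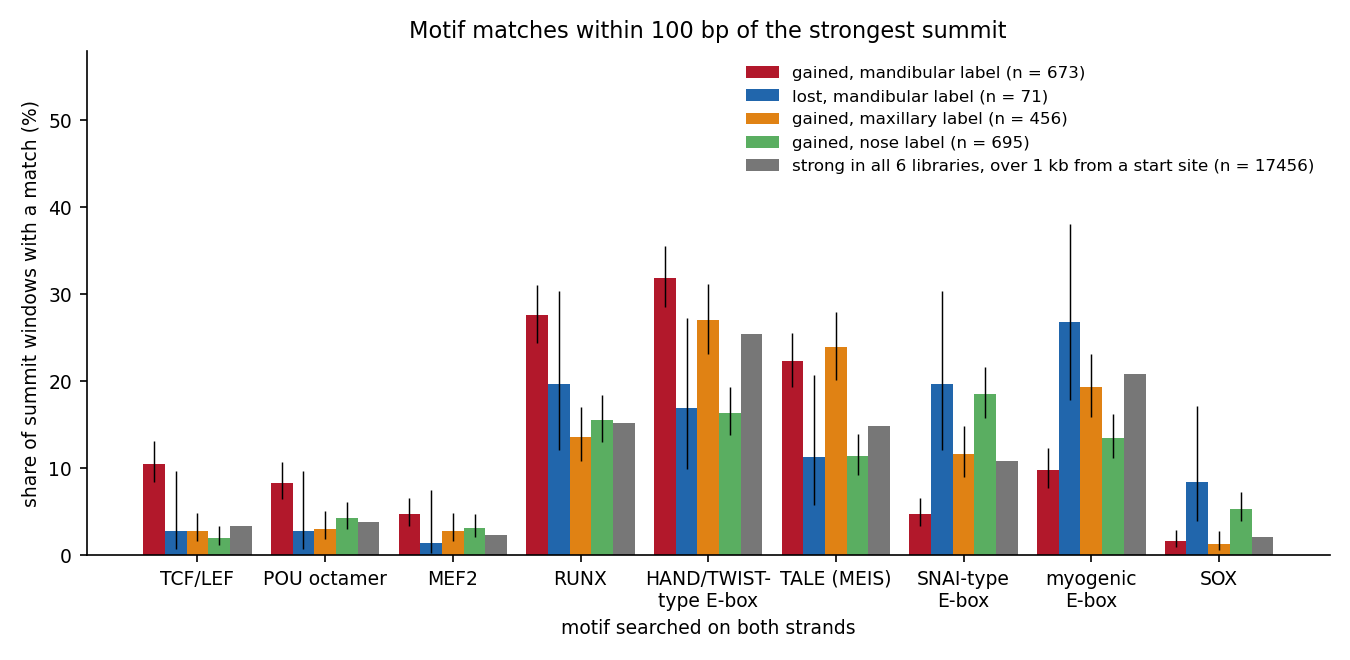
Bars give the share of 201-base summit windows with a match (vertical axis, percent) for 9 motifs (horizontal axis) in gained and lost regions of the label mandibular process, regions gained under the other labels, and distal regions strong in all 6 libraries; error bars are 95% Wilson intervals of the gained and lost classes. TCF/LEF reaches 10.5% and RUNX 27.6% in the gained regions of the label mandibular process, against 2.85% and 13.6% for maxillary process and 2.01% and 15.5% for nose.

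Base composition moved with the class, and a GC band chosen after the data were seen was compared. In distal windows of 35% to 45% GC, RUNX was in 26.4% of 398 gained regions, against 18.9% of 3883 regions strong in all 6 libraries, and in 13.7% and 16.0% of those gained under maxillary process and nose. TCF/LEF was in 10.1%, against 5.02%, 4.06% and 2.33%. The HAND/TWIST-type E-box was in 33.7% of gained and 33.2% of shared regions. The SNAI-type E-box was in 5.78% of gained and 6.77% of shared regions, whereas it was in 11.2% and 16.0% of the regions gained under maxillary process and nose. POU octamer matches were in 7.54% against 5.07%, and MEF2 matches in 5.03% against 4.28%. Where the weaker −log10 q was also held between 5 and 10, RUNX was in 26.0% of 373 gained regions and TCF/LEF in 10.2%, against 15.5% and 3.46% of 1330 shared regions. With strength held as well, the HAND/TWIST-type E-box was in 34.6% and the SNAI-type E-box in 6.17% of the gained regions, against 27.8% and 9.62% of the shared ones, so how these E-boxes compared at like GC depended on strength. The same bands held 4672 distal regions strong in both libraries labelled mandibular process with a peak in the other 4. Of these, RUNX was in 17.7% and TCF/LEF in 4.97%, the HAND/TWIST-type E-box in 28.8% and the SNAI-type E-box in 7.94%.

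RUNX and TCF/LEF shares moved in steps with the number of other libraries that had a peak. Among distal regions strong in both libraries labelled mandibular process, RUNX was in 27.8%, 27.2%, 23.3%, 20.7% and 16.3% of those with a peak in 0, 1, 2, 3 and 4 of the other libraries, classes that held 663 to 32201 regions. TCF/LEF was in 10.4%, 9.37%, 6.60%, 5.91% and 4.10%. The SNAI-type E-box went the other way, with 4.83%, 4.47%, 6.35%, 7.07% and 10.7%, and the HAND/TWIST-type E-box had no steady order, with 32.3%, 28.9%, 32.7%, 31% and 26.1%. Median GC content also climbed over the same steps, with 40.8%, 42.3%, 43.8%, 45.3% and 49.3%, and its part in these steps was not tested. The regions with 1 peak elsewhere thus resembled the gained regions in RUNX share.

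**Figure D4:**
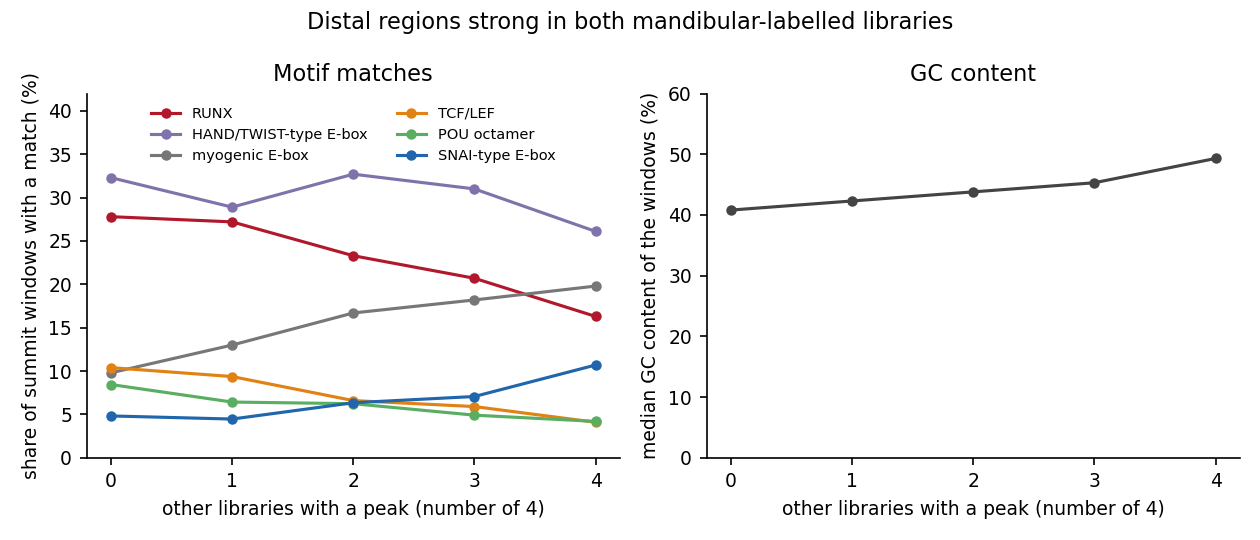
Distal regions strong in both libraries labelled mandibular process, split by how many of the other 4 libraries had a peak (horizontal axis, number), with the share of windows holding a motif (left, percent) and the median GC content (right, percent). RUNX is in 27.8% of the regions with 0 other libraries and 16.3% of those with 4, the SNAI-type E-box in 4.83% and 10.7%, and the median GC content is 40.8% and 49.3%.

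RUNX matches lay about as far from the summits as in shared regions. Of 216 matches in gained regions, 122 (56.5%) were within 50 bp of the summit, with a median distance of 44.5 bp, against 54.6% and 45.5 bp in distal regions strong in all 6 libraries, and an even spread over the window would give 51%. TCF/LEF matches were within 50 bp in 34 of 72 (47.2%). HAND/TWIST-type matches were within 50 bp in 134 of 241 (55.6%).

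With gained and lost regions left out, the same motifs were compared across whole libraries. This is not independent of the rule, because the regions come from the same lists at the same threshold and those strong under the label mandibular process with a peak in 1 to 3 other libraries stay in. RUNX was in 17.7% and 17.0% of the strong distal regions of the libraries labelled mandibular process, against 15.8% and 15.2% for maxillary process and 15.6% and 15.1% for nose. The groups did not overlap, the difference of means was 1.95 percentage points, and the two-sided exact permutation p was 0.0667, the smallest that 2 against 4 libraries allow. After adjustment over 25 motifs it was 0.238 (exact permutation test). TCF/LEF was in 4.50% and 4.67%, against 3.72% and 3.98% for maxillary process and 3.51% and 3.59% for nose, a difference of 0.886 percentage points with the same p-values. The groups again did not overlap, with both libraries labelled mandibular process on top. Among regions with a peak in all 6 libraries, a comparison added after the data were seen, the differences shrank to 0.633 percentage points for RUNX and 0.422 for TCF/LEF, without overlap in either (exact permutation p = 0.0667 each). There the SNAI-type E-box differed by -0.508 percentage points (exact permutation p = 0.133) and the POU octamer by 0.160 (exact permutation p = 0.2). In that comparison 9 of the 25 motifs did not overlap, among them the homeodomain core, TFAP2 and NFI, so this was not particular to RUNX and TCF/LEF.

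The POU octamer was in 4.51% and 4.36%, against 3.92% and 4.00% for maxillary process and 4.09% and 4.01% for nose. The SNAI-type E-box was in 9.78% and 10.6%, against 11.4%, 12.3%, 11.7% and 12.6% in the other 4 libraries. Neither overlapped between the groups, the first higher and the second lower in the libraries labelled mandibular process, with differences of 0.428 and -1.82 percentage points. The HAND/TWIST-type E-box was in 26.6% and 26.3%, against 26.8% and 25.5% for maxillary process and 23.0% and 22.7% for nose, so both jaw labels stood above nose, and the mandibular label overlapped the maxillary one (exact permutation p = 0.267). In all, 10 of 25 motifs (40.0%) did not overlap between the groups and 0 passed an adjusted p of 0.05, which this number of libraries could not reach.

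**Figure D5:**
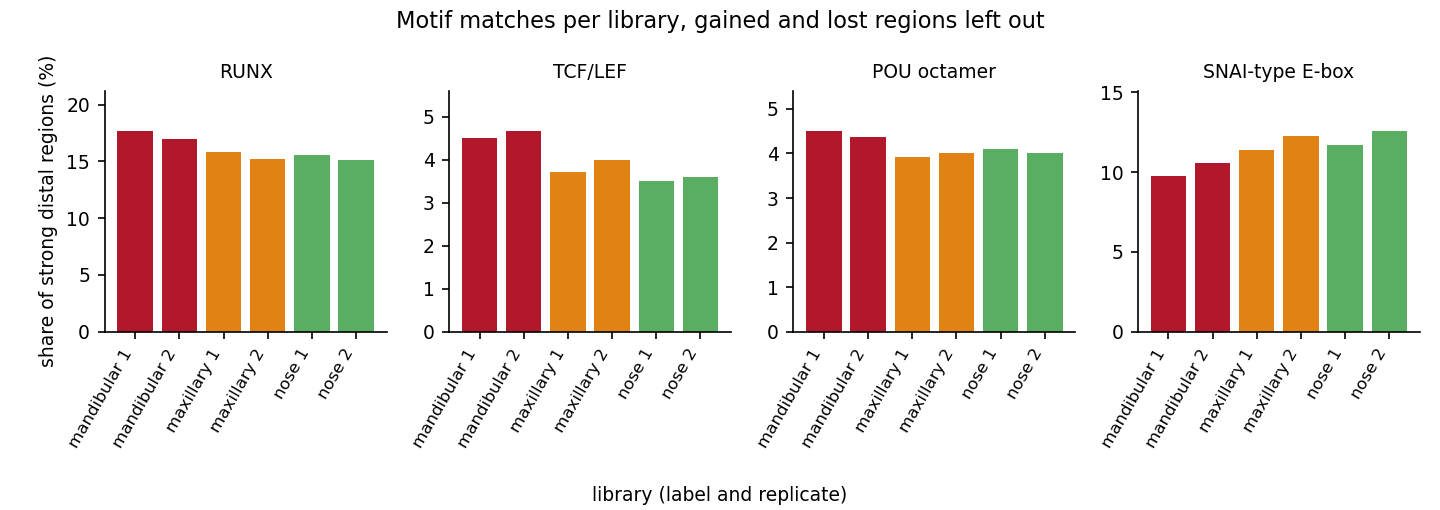
Share of each library's strong distal regions with a match (vertical axis, percent) for 4 motifs, by library (horizontal axis, label and replicate), with gained and lost regions left out. Both libraries labelled mandibular process stand above the other 4 for RUNX (17.0% and above, against 15.8% and below), TCF/LEF and the POU octamer, and below them for the SNAI-type E-box.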

How the data were processed

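Per the labels, transposed nuclei gave single-end 50 bp reads. The submitters' notes name Bowtie2, SAMtools and mm10, without versions, and the peak caller is not given in the sources used here. The authors deposited 1 peak list per library, with 4 values per summit: score, fold over local background, −log10 p and −log10 q. The deposited score equals 10 times the −log10 p, cut to a whole number. The −log10 q served to set strength within each list, and across lists only presence was compared.

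Peaks sharing at least 1 bp were merged. A region's strongest summit by rank in its list was assigned to the nearest protein-coding start site of GENCODE M21, up to 100 kb for gene counts, and up to 1 kb for promoters. Distal means farther than 1 kb. Motifs were searched within 100 bp of the summit in the RefSeq GRCm38 sequence. Libraries were compared by exact permutation over 15 splits, with Benjamini-Hochberg adjustment over 25 motifs. Scripts were tested on simulated data. Analyses ran in Python 3.11.15 (scipy 1.17.1, pandas 2.3.3, numpy 2.4.6, matplotlib 3.10.9).

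Members, gene lists and motifs were chosen with earlier results of these data known. Named were the 10 strongest regions of each kind, the 3 nearest the threshold on each side, list genes nearest to a member, genes with at least 3 members, and the motifs with the 5 highest and 5 lowest ratios. Alternatives were the minimum, merging distance, definition of absence, list length, window, gene distance and each library left out. Some named items are not reported here.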

Additional observations from a re-analysis of the deposited data

How the results depend on the processing

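The counts followed the rule closely. With a minimum of 3 there were 2507 gained and 521 lost regions, and with a minimum of 10 there were 41 and 2. When only peaks of at least 5 counted against absence there were 4171 and 856, with the same lower limit in every list 1137 and 168, and with equal-length lists 1139 and 186. Leaving out 1 library at a time gave 835 to 3200 gained and 78 to 334 lost regions. Fewer libraries or a lower bar admit more regions by construction. The label with the most gained regions changed: mandibular process had 673 and nose 695 by the rule, but mandibular process had 1137 and nose 964 with the same lower limit in every list.

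The promoter share of gained regions was 2.97% within 2.5 kb, 4.16% with start sites of every gene type and 1.13% to 3.41% with 1 library left out. Over the 6 other forms of the rule, RUNX was in 24.0% to 31.7% and TCF/LEF in 7.91% to 11.1% of gained regions. In lost regions the SNAI-type E-box was in 15.2% to 50.0% and SOX in 0% to 7.81%, the 50.0% and 0% resting on 2 regions. SOX was in 8.45% by the rule but in 3.26% of 521 regions with a minimum of 3, 4.30% with equal-length lists, 3.89% without mandibular process replicate 2 and 3.97% without nose replicate 1. The count of motifs without overlap, 10 of 25 in the main setting, was 11 to 16 with 1 library left out. Fewer libraries make such separation easier by construction. The count was 8 with a window of 50 bp on each side, 9 among regions with a peak in all 6 libraries and 11 with a minimum of 10. The lower-jaw difference, -0.00485 percentage points, was 8.48e-05 with genes up to 500 kb away and -0.0103 to 2.25e-05 with 1 library left out. The upper-face difference, -0.00729, was -0.0156 to 0.000278. These signs are not interpretable at this size. The differences per library for RUNX, TCF/LEF, the POU octamer, MEF2 and the 2 named E-boxes kept their sign in every alternative run. With a replicate block, in which libraries were exchanged only within a replicate number (9 exchanges, smallest p 0.111), the exact permutation p was 0.111 for RUNX, TCF/LEF, the POU octamer, MEF2 and the SNAI-type E-box, 0.333 for the HAND/TWIST-type E-box, and 0.778 and 0.889 for the lower-jaw and upper-face differences. The labels do not tie equal numbers to each other, and presence over regions barely deviated together by number (r of 0.00927 to 0.0124 over 382006 regions). Motif shares did deviate together (r of 0.440 to 0.900 over 25 motifs, which are not independent), called Y-linked regions numbered 49 to 64 in replicates 1 and 15 to 16 in replicates 2, and the SNAI-type share was higher in replicate 2 under every label. No paired analysis was possible for the gained and lost counts, which come from no test. Reads were not analysed here, so absence from a list is not absence of signal.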
